A study of Mus musculus with 4 samples.

Results

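The genes described here are 10 members and relatives of the B7 system that carry signals between antigen-presenting cells and lymphocytes. They were taken by name from the 24135 genes to which the deposited entries could be assigned, and all 10 were measured with an OK status in every library. The list holds the costimulatory ligands Cd80, Cd86 and Icosl, the inhibitory ligands Cd274 (PD-L1) and Pdcd1lg2 (PD-L2), the B7 relative Cd276 (B7-H3), the CD200 pair of ligand (Cd200) and receptor (Cd200r1), the receptor Cd226 (DNAM-1) and the fibrinogen-like protein Fgl2. Cd200r1 and Cd226 encode receptors rather than ligands.

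RNA was sequenced from 4 cultures of mouse bone marrow-derived macrophages, with 1 library in each group. The groups were Batf2-/- cells at 3 h (KO at 3 h), Batf2-/- cells at 0 h (KO at 0 h), Batf2+/+ cells at 3 h (WT at 3 h) and Batf2+/+ cells at 0 h (WT at 0 h). All were of the C57BL/6 background, came from marrow kept for 6 days in GM-CSF, a myeloid growth factor, at 10 ng/ml, and were used as adherent cells. Per the labels, all 4 cultures shared a 4 h treatment with interferon-gamma at 10 ng/ml, followed by lipopolysaccharide (LPS), a bacterial ligand of Toll-like receptor 4, at 100 ng/ml for 3 h or 0 h. The age of the mice and the deleted part of Batf2 are not given in the labels, and with 1 culture in each group no spread between cultures can be estimated.

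B7 proteins on antigen-presenting cells meet receptors of the CD28 family on T cells. CD80 and CD86 bind CD28, which supports T cell activation, and CTLA-4, which restrains it, while PD-L1 and PD-L2 bind the inhibitory receptor PD-1. ICOS ligand engages ICOS on activated T cells. CD200 restrains myeloid cells through CD200R1, DNAM-1 binds the poliovirus receptor and nectin-2, and Fgl2 is known both as a prothrombinase of macrophages and as a secreted inhibitor of T cells.

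Levels are in FPKM, the fragments mapped per kilobase of transcript per 1e6 mapped reads, with the deposited lower and upper limits shifted onto the FPKM at the same relative width. These intervals cover counting and read assignment in 1 library. Differences are of log2(FPKM + 1), which understates the change of low genes, and folds are ratios of FPKM. The size rule asked for a difference of 1 or more (2-fold), for 1 FPKM or more in 1 or both of the libraries, and for deposited intervals that did not overlap. No test was run and no p-value was computed.

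The libraries held an estimated 20.3 M to 30.7 M mapped reads (M, 1e6), and 9501 to 10704 genes reached an FPKM of 1. Batf2, the targeted gene, had 10.1 FPKM in KO at 3 h and 0.26 in KO at 0 h, against 234 in WT at 3 h and 2.63 in WT at 0 h. The 8 macrophage markers (among them Csf1r, Adgre1, Cd68 and Itgam) were all above 1 FPKM in every library. They summed to between 16148 and 24566 FPKM, of which Lyz2 alone gave 14415 to 23092. Cd14 was higher in KO at 3 h past the size rule. The 8 markers of T and NK cells summed to between 0.30 and 0.62 FPKM and the 5 B cell markers to between 0.44 and 1.02, with no member at 1 FPKM or above.

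Promoter sequences of 7 of the 10 genes were searched. Cd86 and Cd200r1 had none in the promoter set, and Cd226 was left out of the search. Shown are those of 3 of the 4 genes that were lower in KO at 3 h past the size rule, and that of Cd274 as the neighbour of Pdcd1lg2. Pdcd1lg2 and Cd274 are neighbours on chromosome 19, separated by 22.8 kb between their entries, yet differed in how they compared between genotypes. Fgl2, on chromosome 5, and Cd200, on chromosome 16, were lower in KO at 3 h together with Pdcd1lg2. The windows run from 250 bases before to 50 after the gene start (RefSeq, GRCm38.p6, 5′ to 3′ on the gene's strand), at chr19:29410669-29410968 (forward) for Pdcd1lg2, chr19:29367188-29367487 (forward) for Cd274, chr5:21372423-21372722 (forward) for Fgl2 and chr16:45409004-45409303 (reverse) for Cd200. Capitals mark matches to any of 4 searched motifs.
Pdcd1lg2: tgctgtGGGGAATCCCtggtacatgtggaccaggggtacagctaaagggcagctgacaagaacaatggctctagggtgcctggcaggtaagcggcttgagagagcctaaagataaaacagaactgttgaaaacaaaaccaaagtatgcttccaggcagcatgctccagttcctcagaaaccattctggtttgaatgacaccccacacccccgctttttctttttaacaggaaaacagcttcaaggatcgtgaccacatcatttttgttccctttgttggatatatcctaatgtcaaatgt
Cd274: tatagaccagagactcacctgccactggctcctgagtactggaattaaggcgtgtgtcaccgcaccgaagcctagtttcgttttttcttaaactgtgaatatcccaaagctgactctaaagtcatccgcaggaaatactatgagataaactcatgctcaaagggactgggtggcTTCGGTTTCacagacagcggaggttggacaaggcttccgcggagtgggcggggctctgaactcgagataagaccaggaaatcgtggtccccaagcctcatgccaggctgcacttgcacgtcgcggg
Fgl2: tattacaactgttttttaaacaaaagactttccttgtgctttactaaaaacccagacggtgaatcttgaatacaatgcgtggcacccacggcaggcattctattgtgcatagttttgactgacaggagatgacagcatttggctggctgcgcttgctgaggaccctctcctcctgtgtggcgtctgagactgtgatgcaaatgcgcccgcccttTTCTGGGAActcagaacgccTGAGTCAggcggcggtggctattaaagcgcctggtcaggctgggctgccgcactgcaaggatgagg
Cd200: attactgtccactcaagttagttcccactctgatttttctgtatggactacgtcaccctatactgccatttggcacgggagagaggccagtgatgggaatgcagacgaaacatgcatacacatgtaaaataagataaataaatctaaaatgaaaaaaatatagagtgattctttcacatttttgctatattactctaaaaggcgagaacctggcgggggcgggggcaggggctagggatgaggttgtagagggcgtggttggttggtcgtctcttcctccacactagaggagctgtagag

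The motifs were searched on both strands. They were the interferon-gamma-activated site (TTCNNNGAA), the core of the interferon-stimulated response element (GAAANNGAA), the AP-1 site (TGANTCA), which proteins of the BATF and JUN families are known to bind, and the NF-kappaB consensus. The Pdcd1lg2 window held 1 NF-kappaB match, starting at position -244 from the gene start, and no AP-1 match. The Cd274 window held 1 match to the response element core, at position -76. The Fgl2 window held an interferon-gamma-activated site at position -36 and an AP-1 match at position -16, which do not overlap. The Cd200 window held no match, which says only that these letters are not in it. Of the other 3 windows, that of Cd80 held 1 AP-1 match and those of Icosl and Cd276 held none. The Cd276 window (chr9:58554984-58555283, reverse) lies away from the start of the measured entry, at 58540940. Among all 32851 promoters of the same length, 8.30% held the first motif, 8.56% the second, 7.81% the AP-1 letters and 4.51% the NF-kappaB consensus. Matches are descriptions of the sequence and not shown to be bound.

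The comparison of genotypes at 3 h of LPS asks how the loss of Batf2 bears on these genes in activated macrophages. Pdcd1lg2, Cd226, Cd200 and Fgl2 were lower in KO past the size rule, by 2.09-fold to 2.61-fold, and none of the 10 was higher past it. Over all 9808 genes tested in this comparison, 0.724% were lower and 0.734% higher past the rule. The 10 genes were chosen with earlier results of these data known, so their counts here and in the later comparisons are descriptions and not evidence of enrichment. The median difference was -0.30 over the 10 genes and -0.07 over all genes tested. The other costimulators and Cd274 differed by less than 2-fold.

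Pdcd1lg2, which encodes the second ligand of PD-1, had 13.7 FPKM (12.7 to 14.7) in KO at 3 h and 14.5 (13.5 to 15.6) in KO at 0 h, against 35.8 (33.9 to 37.7) in WT at 3 h and 28.7 (27.2 to 30.2) in WT at 0 h. Both KO libraries lay below both WT libraries, with no overlap of intervals. At 3 h it was 2.61-fold lower in KO (2.38 to 2.86), a log2 difference of -1.32, and only 52 of the 9808 genes tested had a lower value. At 0 h it was 1.97-fold lower (1.80 to 2.16), with a log2 difference of -0.93 that stayed just short of the rule.

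Cd226, an activating receptor known from T cells and NK cells, had 9.17 FPKM (8.37 to 9.96) in KO at 3 h and 3.59 (3.10 to 4.07) in KO at 0 h, against 23.3 (21.6 to 24.9) in WT at 3 h and 6.44 (5.74 to 7.15) in WT at 0 h. It was lower in KO at each time, by 2.54-fold at 3 h (2.27 to 2.84, log2 difference -1.26) and by 1.79-fold at 0 h (1.51 to 2.14, log2 difference -0.70). Of its 2 RefSeq entries, which share a span on chromosome 18 from 89197427 to 89270327 (GRCm38, forward strand), 1 held all of the FPKM and the other was listed at 0 in every library. The markers of T and NK cells were near 0 beside it, at 0.33 FPKM in sum in KO at 3 h against 0.30 in WT at 3 h, and Gzma and Prf1 were listed at 0 in all 4 libraries.

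Cd200, the ligand of the inhibitory receptor CD200R1, had 17.1 FPKM (15.7 to 18.5) in KO at 3 h and 5.19 (4.51 to 5.86) in KO at 0 h, against 37.6 (35.3 to 39.9) in WT at 3 h and 5.68 (4.95 to 6.41) in WT at 0 h. The genotypes lay apart at 3 h, by 2.20-fold (1.99 to 2.43, log2 difference -1.09), while their intervals overlapped at 0 h. Fgl2 had 65.1 FPKM (62.8 to 67.4) in KO at 3 h and 9.09 (8.33 to 9.85) in KO at 0 h, against 136 (133 to 139) in WT at 3 h and 13.3 (12.3 to 14.3) in WT at 0 h. It was 2.09-fold lower in KO at 3 h (2.00 to 2.18, log2 difference -1.05) and 1.47-fold lower at 0 h (1.31 to 1.64, log2 difference -0.51). The 3 h value of Fgl2 lies close to the threshold, and it no longer passed when the libraries were rescaled by the median ratio (-0.97). With a pseudocount of 5, Cd200 (-0.95) and Cd226 (-0.997) did not pass.

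**Figure D1:**
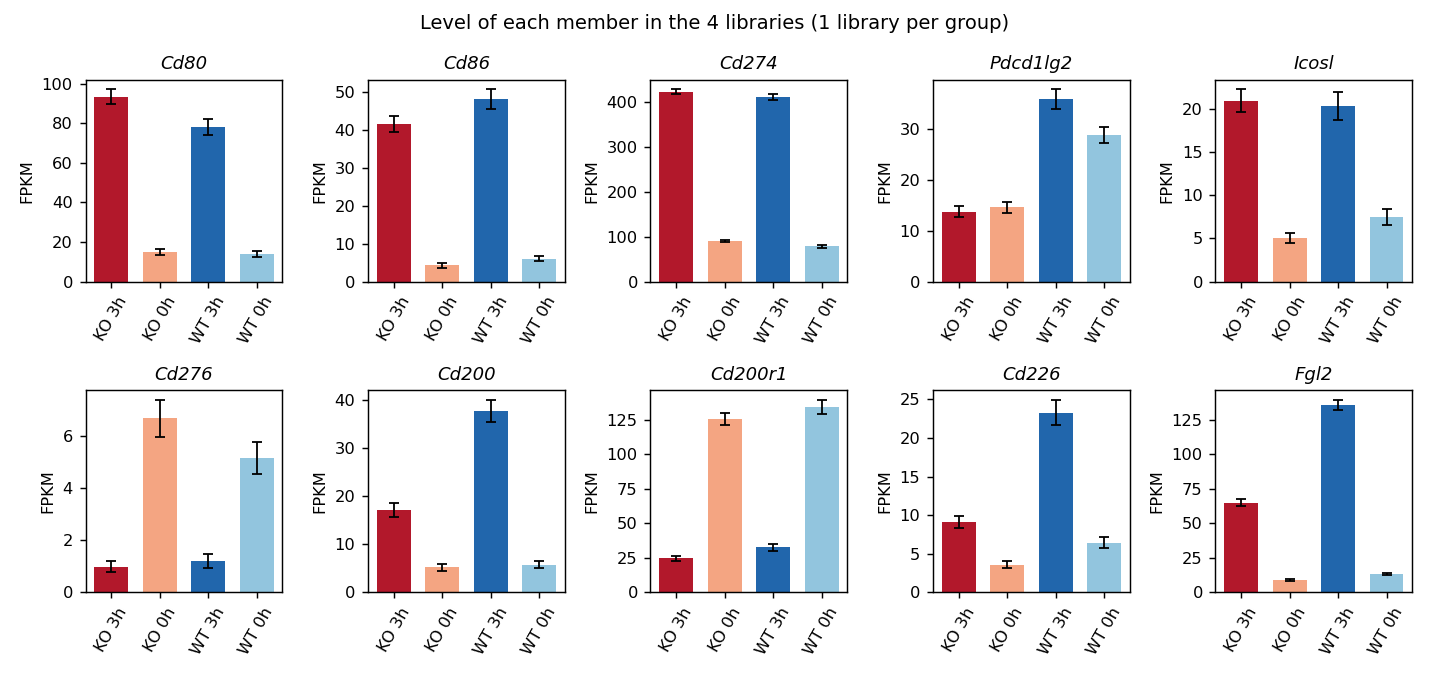
Level of the 10 genes (FPKM, linear axes from 0) in KO at 3 h, KO at 0 h, WT at 3 h and WT at 0 h; each bar is 1 library and the error bar its deposited interval moved onto the FPKM. Pdcd1lg2 is low in both KO libraries (13.7 and 14.5 FPKM against 35.8 and 28.7 in WT), while the KO bars of Cd200, Cd226 and Fgl2 at 3 h are under those of WT.

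Cd274 stood apart from its neighbour Pdcd1lg2. It had 424 FPKM (419 to 429) in KO at 3 h and 90.1 (87.6 to 92.5) in KO at 0 h, against 412 (405 to 418) in WT at 3 h and 78.5 (75.7 to 81.3) in WT at 0 h. The genotypes differed by 1.03-fold at 3 h (1.01 to 1.05) and by 1.15-fold at 0 h (1.10 to 1.20), higher in KO. Cd274 lies 23.2 Mb from Batf2 on the same chromosome, from 29367438 to 29388094 (GRCm38, forward strand). Per length of transcript, the level of Pdcd1lg2 was 3.23% of that of Cd274 in KO at 3 h and 16.2% in KO at 0 h, against 8.69% in WT at 3 h and 36.6% in WT at 0 h. This share does not depend on how the libraries are scaled, and it was lower in KO than in WT at each time.

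The CD28 and CTLA-4 ligands went different ways in level between genotypes, each within 2-fold. Cd80 had 93.5 FPKM (89.9 to 97.2) in KO at 3 h and 14.8 (13.3 to 16.4) in KO at 0 h, against 78.0 (73.9 to 82.2) in WT at 3 h and 13.8 (12.3 to 15.3) in WT at 0 h. Its log2 difference between genotypes was 0.26 at 3 h and 0.09 at 0 h, where the intervals overlapped. Cd86 had 41.6 FPKM (39.5 to 43.7) in KO at 3 h and 4.33 (3.71 to 4.95) in KO at 0 h, against 48.2 (45.6 to 50.8) in WT at 3 h and 6.07 (5.31 to 6.82) in WT at 0 h. Its log2 difference was -0.21 at 3 h and -0.41 at 0 h, with intervals apart at both times. The ratio of Cd80 to Cd86 in FPKM was thus 2.25 in KO at 3 h and 3.43 in KO at 0 h, against 1.62 in WT at 3 h and 2.28 in WT at 0 h.

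Icosl, the ligand of ICOS, had 20.9 FPKM (19.6 to 22.2) in KO at 3 h and 5.06 (4.45 to 5.66) in KO at 0 h, against 20.2 (18.6 to 21.9) in WT at 3 h and 7.47 (6.56 to 8.37) in WT at 0 h. The genotypes overlapped at 3 h and lay apart at 0 h, where Icosl was 1.48-fold lower in KO (1.25 to 1.75). Cd276, a B7 relative whose receptor is not settled, had 0.99 FPKM (0.77 to 1.20) in KO at 3 h and 6.69 (5.99 to 7.39) in KO at 0 h, against 1.20 (0.93 to 1.48) in WT at 3 h and 5.18 (4.56 to 5.79) in WT at 0 h. Its genotypes overlapped at 3 h, where it had the fewest reads of all, an estimated 109 in KO and 87.9 in WT. Cd200r1, the inhibitory receptor of myeloid cells for CD200, had 24.6 FPKM (22.8 to 26.4) in KO at 3 h and 125 (121 to 130) in KO at 0 h, against 32.4 (29.9 to 35.0) in WT at 3 h and 134 (129 to 139) in WT at 0 h. It was 1.32-fold lower in KO at 3 h (1.18 to 1.47). Cd200r1 has close paralogs, and how reads mapping to several of them were shared out is not stated in the labels.

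**Figure D2:**
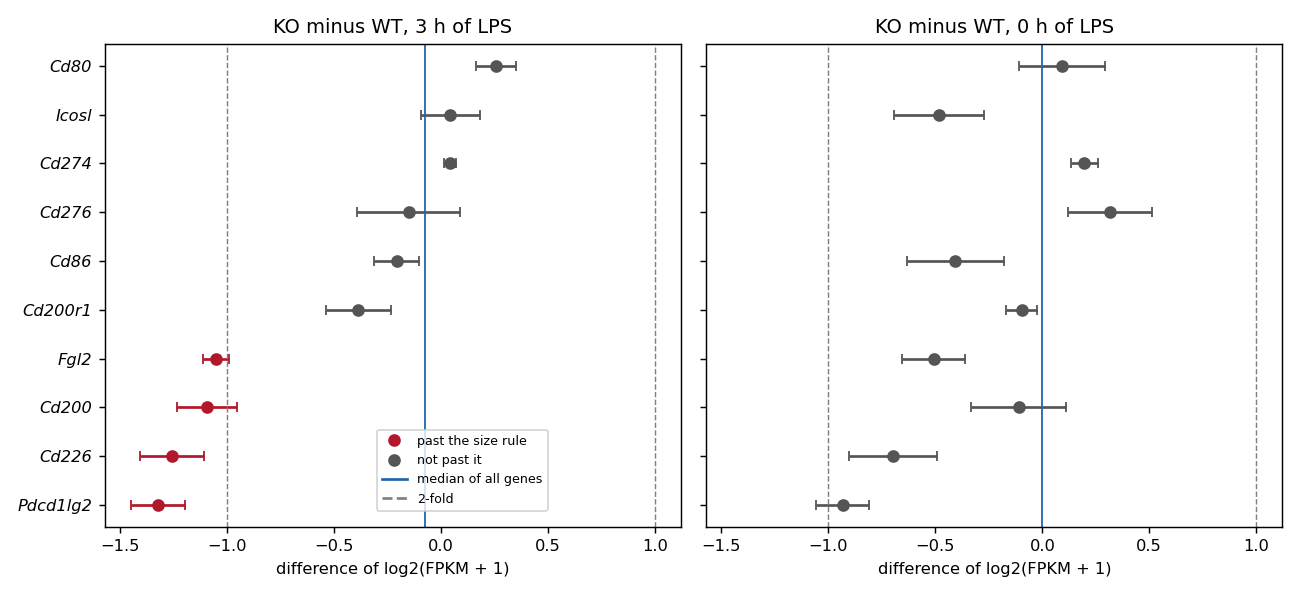
Difference of log2(FPKM + 1), KO minus WT, of the 10 genes at 3 h (left) and 0 h (right) of LPS, with intervals propagated from the deposited ones; red points passed the size rule, dashed lines mark 2-fold and the blue line the median of all genes tested (-0.07 and -0.00). Pdcd1lg2, Cd226, Cd200 and Fgl2 lie below -1 at 3 h, and no gene reaches 2-fold at 0 h.

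Before LPS, the comparison of genotypes gave no member past the size rule, where 0.387% of 10846 genes tested were lower in KO past it and 1.33% higher. Of the 10 genes, 7 were lower in KO and 3 (Cd80, Cd274 and Cd276) higher, with a median difference of -0.26 against -0.00 over all genes. Among all genes tested, 50.1% were lower in KO. The deposited intervals of Cd80, Cd200 and Cd200r1 overlapped between genotypes. Pdcd1lg2 (-0.93) and Cd226 (-0.70) had the lowest values. Only 72 and 143 of the tested genes, in the same order, lay below them.

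**Figure D3:**
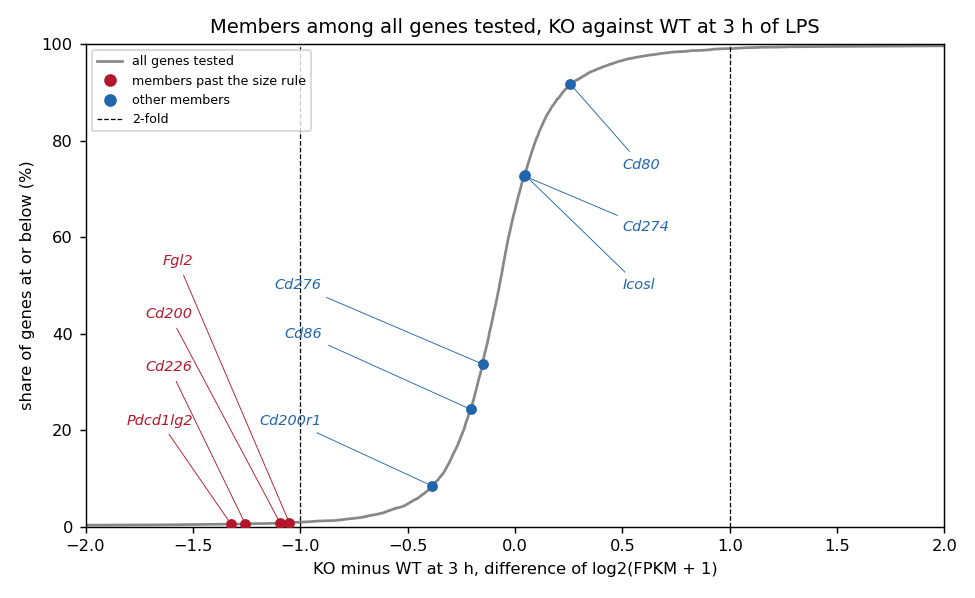
Cumulative share of all 9808 genes tested (%, vertical axis) by their difference between KO and WT at 3 h of LPS (log2(FPKM + 1), horizontal axis, shown from -2 to 2), with the 10 genes as points on the curve. Pdcd1lg2, Cd226, Cd200 and Fgl2 (red) lie in the lowest 1% of genes, and the other 6 (blue) between 8.44% and 91.6%.

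Some markers of other cells that such cultures could hold differed between genotypes, not always at both times. No neutrophil marker passed the rule at 3 h, where their median difference was -0.04. Dendritic cell markers, of which 9 were measured, summed to 543 FPKM in KO at 3 h and 570 in KO at 0 h, against 494 in WT at 3 h and 587 in WT at 0 h. Itgax alone gave 498, 556, 457 and 564 FPKM of these sums in the same order, so they say little of the other markers. At 3 h 3 of the 6 tested were lower in KO, among them Clec9a past the rule (2.16 FPKM in KO, 9.68 in WT), and at 0 h 5 of 6 were, with Cd209a past it (2.13 against 6.46). Flt3, a growth factor receptor of dendritic cells, stayed under 0.1 FPKM throughout. The 8 neutrophil markers summed to 4997 FPKM in KO at 3 h and 8626 in KO at 0 h, against 5253 in WT at 3 h and 3485 in WT at 0 h, with 8 of 8 higher in KO at 0 h, 4 of them past the rule, and 2 of 8 at 3 h. The 6 stromal markers summed to 83.5 FPKM in KO at 3 h and 125 in KO at 0 h, against 53.6 in WT at 3 h and 49.96 in WT at 0 h, with all tested ones higher in KO (5 of 5 at 3 h, 6 of 6 at 0 h, 3 of these past the rule). Mast cell and basophil markers summed to 23.4 and 11.8 FPKM in KO at 3 h and 0 h, against 15.4 and 6.23 in WT, with 4 of 4 and 5 of 5 tested higher in KO. Gata2 passed the rule at 3 h (2.24 FPKM in KO, 0.34 in WT) and Hdc at 0 h (3.86 against 1.26). The part of these cells in the genotype differences was not tested, and in such bulk libraries fewer cells of a type cannot be told apart from less RNA per cell.

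The libraries at 3 h and 0 h were compared next, to ask how the genes differ between these times in each genotype. Cxcl9 and Iigp1, targets of interferon-gamma, were under 1 FPKM in both 0 h libraries despite the labelled treatment. These differences can therefore not be assigned to LPS alone. Here and below, LPS response names the difference between 3 h and 0 h and not its cause. In KO cells 7 of the 10 were higher at 3 h past the size rule and 2 lower, and the same counts held in WT cells. Over all genes tested, 7.85% were higher and 28.0% lower in KO, and 7.56% higher and 23.2% lower in WT. Those shares rest on the scale of the FPKM: the median of all genes was -0.64 in KO and -0.54 in WT, and rescaling by the median ratio moved it up by 0.55 and 0.48. The share of higher among all calls was 56.1% in KO and 54.7% in WT after rescaling, against 21.9% and 24.6% as deposited. The counts of 7 and 2 among the 10 genes were the same after rescaling.

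Cd80, Cd86, Cd274, Icosl, Cd200, Cd226 and Fgl2 were higher at 3 h in both genotypes past the size rule, though with a pseudocount of 5 Cd226 did not pass in KO (0.72). Cd86 was 9.61-fold higher in KO (8.26 to 11.2) and 7.94-fold in WT (6.94 to 9.09), and Cd80 6.30-fold (5.65 to 7.03) and 5.64-fold (4.996 to 6.36). Cd274 was 4.71-fold higher in KO (4.57 to 4.85) and 5.25-fold in WT (5.05 to 5.45), and had the highest level of the 10 genes in each 3 h library. Fgl2 was 7.16-fold higher in KO (6.54 to 7.84) and 10.2-fold in WT (9.42 to 11.03).

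Cd200r1 and Cd276 were lower at 3 h in both genotypes. Cd200r1 was 5.10-fold lower in KO and 4.14-fold in WT, and among the 10 genes its level ranked the fifth in KO and the seventh in WT at 3 h, against the first in both 0 h libraries. Its ligand went the other way, so that the ratio of Cd200 to Cd200r1 in FPKM was 0.69 in KO at 3 h and 0.041 in KO at 0 h, against 1.16 in WT at 3 h and 0.042 in WT at 0 h. Cd276 was 6.79-fold lower in KO and 4.30-fold in WT. With a pseudocount of 5 it did not pass in either genotype.

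Pdcd1lg2 was the 1 gene of the 10 that did not pass in either genotype. Its 3 h and 0 h intervals overlapped in KO, with a log2 difference of -0.08 that turned to 0.52 after rescaling, and lay apart in WT, with a difference of 0.31. Relative to the median of all genes these values were 0.56 and 0.85.

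The difference between the genotypes' LPS responses, KO minus WT, passed the rule for none of the 10 genes, where 2.47% of 11128 genes passed in either direction. Cd200 came closest, at -0.98 (-1.25 to -0.72), being 3.30-fold higher at 3 h than at 0 h in KO (2.83 to 3.84) and 6.62-fold in WT (5.74 to 7.63). With a pseudocount of 0.1 its difference was -1.004 and passed. Cd226 (-0.56) and Fgl2 (-0.54) were lower too, with intervals that exclude 0. The intervals of Cd276 (-0.47), Pdcd1lg2 (-0.39), Cd200r1 (-0.29) and Cd274 (-0.15), in the same direction, and Icosl (0.53), in the other, also excluded 0. How many of all genes had such intervals was not counted. Over all genes tested the median was -0.08, with 63.4% below 0. After rescaling by the median ratio, Cd274 was at -0.05. The differences of Cd80 (0.16) and Cd86 (0.20) had intervals that include 0. Rescaling moved them to 0.27 and 0.28, further from 0, and their intervals on that scale are not reported here.

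**Figure D4:**
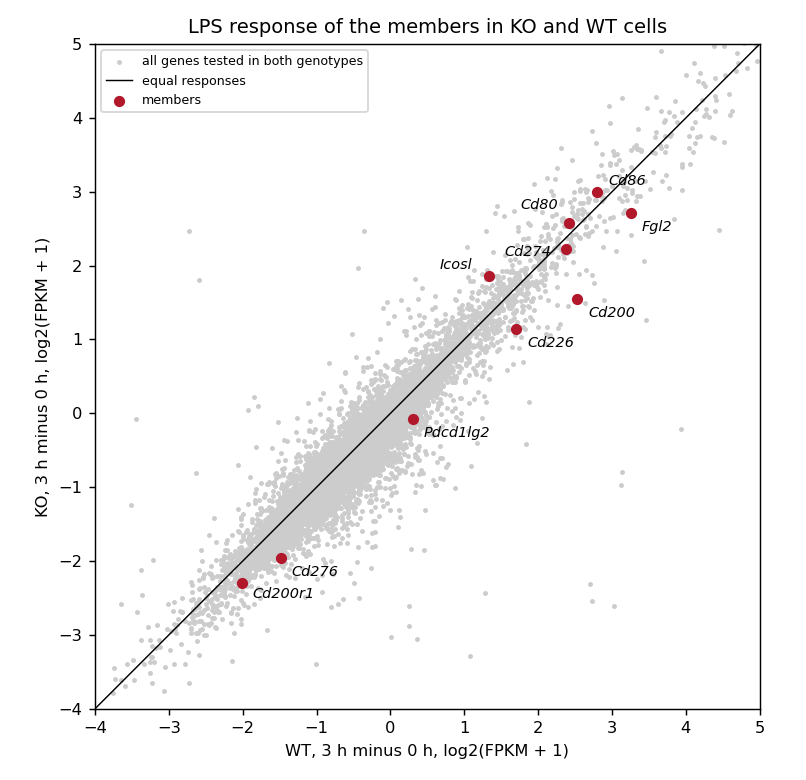
Difference between 3 h and 0 h of LPS on the log2(FPKM + 1) scale in KO cells (vertical axis) against WT cells (horizontal axis); grey points are all genes tested in both genotypes, apart from those beyond the axis limits, and the line marks equal responses. Cd200, Cd226 and Fgl2 lie under the line, Icosl above it, and Pdcd1lg2 near 0 in both genotypes (-0.08 and 0.31).

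Interferon-gamma targets bear on how the 0 h libraries are read, because Cd274 is a known target of that cytokine. Of 11 such targets, all 11 in KO and 10 in WT were higher at 3 h past the size rule, with median differences of 4.63 and 4.68. Cxcl9, a chemokine induced by interferon-gamma, had 0.12 FPKM in KO at 0 h and 0.62 in WT at 0 h, and Iigp1 had 0.094 and 0.12, although the labels give the 4 h treatment for all cultures. The differences between 3 h and 0 h can therefore not be assigned to LPS alone. Between genotypes none of these targets passed. At 3 h 9 of the 11 were lower in KO, with a median of -0.15, and at 0 h all 9 tested were, with a median of -0.33. Over all genes tested, 65.6% were lower in KO at 3 h, with a median of -0.07, and 50.1% at 0 h, with a median of -0.00. Cxcl9 and Iigp1 were under 1 FPKM at 0 h and not tested there.

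The regulators of PD-L1 were measured beside it. Of 13, 7 rose and 2 fell past the rule by 3 h in each genotype, among the 7 Irf1, a transcription factor of the interferon response (370 FPKM in KO at 3 h and 12.6 in KO at 0 h, against 419 in WT at 3 h and 12.4 in WT at 0 h). Cmtm6, which keeps PD-L1 on the cell surface, had 44.8, 42.4, 45.7 and 42.6 FPKM in KO at 3 h, KO at 0 h, WT at 3 h and WT at 0 h. None of the 12 tested at 3 h or the 13 tested at 0 h passed between genotypes, with median differences of -0.05 at 3 h and -0.02 at 0 h. Jak2, a kinase of the interferon-gamma receptor, had 215 FPKM in KO at 3 h and 37.9 in KO at 0 h, against 178 in WT at 3 h and 53.1 in WT at 0 h.

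Partners of DNAM-1 and CD200 were compared in the same way. Pvr, a ligand of DNAM-1, had 19.5 FPKM in KO at 3 h and 5.52 in KO at 0 h, against 16.5 in WT at 3 h and 3.11 in WT at 0 h. Nectin2, the other ligand, had 52.3 and 7.60 FPKM in KO, against 49.7 and 9.16 in WT, in the same order of times. Both were higher at 3 h past the rule in each genotype, and neither passed between genotypes. Nectin3, an adhesion protein that binds other nectins, was the 1 of 6 that passed between genotypes. It had 3.75 FPKM in KO at 3 h and 2.77 in KO at 0 h, against 0.20 in WT at 3 h and 0.099 in WT at 0 h. The CD200 receptor relative Cd200r4 had 34.5 FPKM in KO at 3 h and 96.0 in KO at 0 h, against 45.7 in WT at 3 h and 114 in WT at 0 h, and like Cd200r1 it was lower at 3 h past the rule in both genotypes.

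Most other B7 relatives and receptors on lymphocytes stayed under 1 FPKM. Of the 6 other B7 and butyrophilin relatives, Vsir (VISTA), an inhibitory member, was the 1 that reached 1 FPKM, while Vtcn1 and Btn1a1 were listed at 0 in all 4 libraries. Vsir had 5.64 FPKM in KO at 3 h and 69.1 in KO at 0 h, against 7.08 in WT at 3 h and 54.6 in WT at 0 h, and was lower at 3 h past the rule in both genotypes. Among the 9 receptors, Btla and Havcr2 (TIM-3) reached 1 FPKM. Btla had 5.61 and 0.63 FPKM in KO at 3 h and 0 h, against 5.28 and 0.53 in WT, and Havcr2 had 0.97 and 5.34, against 1.71 and 5.40. Cd28, Ctla4, Icos and Pdcd1 stayed under 1 FPKM in all 4 libraries, as did Tigit, Cd96 and Lag3.

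Costimulators of the TNF family showed no member past the rule between genotypes, with medians over the tested ones of 0.14 at 3 h and -0.31 at 0 h. Cd40, the receptor for T cell help, had 717 FPKM in KO at 3 h and 1.02 in KO at 0 h, against 690 in WT at 3 h and 1.51 in WT at 0 h. Of 7 tested, 6 in KO and 5 in WT were higher at 3 h past the rule, among them Cd40, Tnfsf15, Tnfsf9 (the ligand of 4-1BB) and Tnfsf4 (OX40 ligand), while Tnfsf14 was lower in both genotypes. The LPS responses of Tnfsf8 (CD30 ligand) and Tnfsf15 differed between genotypes past the rule, at 1.14 and 1.02. Of the other inhibitory ligands and receptors of myeloid cells, none of the 10 tested at 3 h or the 9 tested at 0 h passed between genotypes. The LPS response of Arg1, an arginine-degrading enzyme of macrophages, differed past the rule, at -1.34, with 0.29 FPKM in KO at 3 h and 6.25 in KO at 0 h, against 1.06 in WT at 3 h and 3.58 in WT at 0 h. Lilrb4a had the highest level among them, at 1169.7 FPKM in KO at 3 h against 1180.2 in WT at 3 h.

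Class II genes, which present the antigen that costimulation accompanies, were compared too. At 0 h each of the 6 had a lower level in KO, with a median difference of -0.76 and no call, and at 3 h the median was 0.27 with 4 of 6 higher. Their LPS responses differed by a median of 1.04 (KO minus WT), with all 6 higher in KO. Those of H2-Aa, H2-Ab1 and H2-Eb1 passed the rule, as did 2.47% of 11128 genes in either direction.

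Genes with the profile most like those of 4 members were taken by the distance between log2(FPKM + 1) values of the 4 libraries, each gene centred on its own mean, among 6983 protein-coding genes with a mean FPKM of at least 5. Nearest to Pdcd1lg2 were Rnase6 (distance 0.16; 21.9 FPKM in KO at 3 h and 23.7 in KO at 0 h, against 50.1 in WT at 3 h and 45.8 in WT at 0 h), Cadm1 (0.33) and Plbd1 (0.47). Nearest to Cd274 were Tgm2 (0.060), Dcbld2 (0.073) and Zfp558 (0.082). Nearest to Cd86 were Fam102b (0.081), Cd83 (0.10), a marker of mature dendritic cells, and Fpr2 (0.11). Fgl2 had no gene as near, with Slamf7 (0.56), Gbp8 (0.57) and Fam102b (0.58) the first 3. Likeness over 4 libraries is a description.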

How the data were processed

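RNA of 4 libraries, 1 per group, was analysed. The authors' deposited tables list FPKM, its lower and upper limits and a status per RefSeq entry. Per the submitters' processing notes, TopHat2, Bowtie, SAMtools and Cufflinks were used with mm9. Neither versions nor the treatment of reads that map to several genes could be taken from the labels. The loci fit GRCm38: of named entries, 95.8% fell within the GRCm38 gene they are named for. Per the labels' protocols the libraries were strand-specific single reads.

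Of 33841 entries, 33437 were named from RefSeq (GRCm38.p6) and 187 from GENCODE, and 217 kept their accession. FPKM was summed per symbol, and so were the limits. The status had to be OK in each compared library, which left out 402 to 435 entries. Depth was estimated from entries whose interval marks a single read, on transcripts over 2000 bases. Of the 40 FPKM values of the 10 genes, 15 lay outside their own deposited interval; the cause was not tested. Differences of log2(FPKM + 1) and the size rule (at least 1, FPKM at least 1, intervals apart) were computed with pandas 2.3.3 and NumPy 2.4.6 on all genes. The rule was also run on simulated data with planted changes and counting noise only. That simulation holds no spread between cultures and cannot show how the rule performs on real cultures. Differences of responses required an interval, propagated from the 4 libraries, that excludes 0. Named genes were the 10 members, Batf2, the 3 nearest genes to each of 4 members, and, per list, genes that passed between genotypes and up to 4 with the highest mean FPKM; some list genes outside this rule were named after their values were seen. The members and lists were chosen with earlier results of these data known. The alternatives were 7 settings of pseudocount, scaling, filter, entry choice and interval.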

Additional observations from a re-analysis of the deposited data

Results flagged for a closer look

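Icosl differed in opposite directions between the genotypes at the 2 times, with -0.48 on the log2(FPKM + 1) scale at 0 h and 0.04 at 3 h (KO minus WT). The 3 h intervals overlapped. Cd276 went the other way, at 0.32 at 0 h and -0.15 at 3 h, again with overlapping intervals at 3 h. The LPS response of Pdcd1lg2 had opposite signs, at -0.08 in KO, where intervals overlapped, and 0.31 in WT. None of these differences between groups was tested, since each rests on 1 library per group, and the KO value of Pdcd1lg2 turned to 0.52 after rescaling by the median ratio.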

How the results depend on the processing

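No paired analysis was possible because each group holds 1 library, and for the same reason no replicate could be left out. Of 350 values of the 10 genes under 7 alternatives, 301 moved by less than their interval and 49 by more. All 49 came from the pseudocounts and the rescaling. The settings of minimum FPKM, entry choice and interval could not change these values and count among the 301, which is thus no measure of stability. No value past the size rule changed sign. With a pseudocount of 5, 2 of the 10 genes (Pdcd1lg2 and Fgl2) were lower in KO at 3 h past the rule in place of 4, and 1 gene (Cd200r1) in place of 2 was lower at 3 h than at 0 h in KO and in WT, since Cd276 fell short (-0.97 in KO, -0.71 in WT). Cd226 (0.72) fell short in KO too, which left 6 genes higher there in place of 7. With a pseudocount of 0.1, 1 gene (Cd200) in place of 0 differed between LPS responses, in the lower direction. Rescaling left 3 genes lower in KO at 3 h, without Fgl2. Counts over all genes moved more: lower in KO at 3 h were 71 as analysed, 143 and 20 with pseudocounts of 0.1 and 5, 66 after rescaling, 43 with a minimum FPKM of 5 and 153 with the single highest entry of each gene. At 0 h the counts lower in KO were 42 as analysed and 75, 16, 39, 32 and 117 in the same order. After rescaling, 1404 genes rose and 1100 fell past the rule by 3 h in KO, in place of 861 and 3065, and 1274 and 1056 in WT, in place of 820 and 2514. Depth limited Cd276 most, at an estimated 87.9 reads in WT at 3 h.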
